A study of Danio rerio with 14 samples.

Results

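Gene-body peaks are sites of open chromatin that lie inside an annotated gene but away from its promoter. They were taken here as nuclear ATAC-seq peaks to which the authors had assigned a gene, whose centre lay at least 500 bp from the transcription start site and of which a fraction of at least 0.5 overlapped the gene body. This gave 1165 of the 16610 peaks in the table shared by regenerating, junb-overexpressing and uninjured cardiomyocytes, or 7.01% of its nuclear peaks, and 439 of the 6339 peaks in the separate A-Fos table. The choice used position alone and no measured accessibility. A mean value of at least 10 was required for testing, which 1036 of the 1165 and 425 of the 439 gene-body peaks passed.

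ATAC-seq uses a transposase that inserts adapters into accessible DNA, so that the reads in a peak measure how open the chromatin is there. Introns near the start of a gene often hold enhancers, sites where transcription factors bind and act on a promoter from a distance. AP-1, a dimer of Jun and Fos proteins such as the zebrafish JunB paralogs encoded by junba and junbb, binds many such sites. It is known for its activity after tissue damage, and zebrafish replace lost heart muscle by dedifferentiation and division of cardiomyocytes beside the wound.

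The study compared cardiomyocytes of adult zebrafish ventricles in 14 libraries of 6 groups, each library from a pool of 6 hearts. Regenerating cells carried a gata4:EGFP reporter and were sorted by fluorescence at 4 days after cryoinjury, a freezing injury made in male and female fish of 4 to 12 months (gata4:EGFP+, 2 libraries). Uninjured cardiomyocytes overexpressing junba or junbb were collected 7 days after induction (junba OE and junbb OE, 2 libraries each). Uninjured cells sorted on the cardiomyocyte reporter myl7:nucDsRed served as the control for these 3 groups (myl7:nucDsRed+, 2 libraries). In the second table, cardiomyocytes of the wound border at 4 days after cryoinjury did or did not express A-Fos, a dominant-negative Fos that holds Jun proteins off DNA. The A-Fos (+) fish were injected with 4-hydroxytamoxifen at 0.5 mg/mL and the A-Fos (-) fish with the ethanol vehicle (3 libraries each). Between them A-Fos expression and the drug cannot be told apart. The gata4:EGFP+ and myl7:nucDsRed+ cells were sorted on different reporters with 5000 cells per reaction, so that between them injury and reporter cannot be told apart. The junba OE and junbb OE cells came from density gradients with 50000 cells, so that in those comparisons overexpression, isolation and cell number cannot be told apart. The A-Fos cells also came from density gradients, with 5000 cells in both groups. The labels do not say whether libraries of a group come from separate experiments, and p-values measure the spread between these libraries only.

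The gene-body peaks sat close to the starts of long genes. Their distance to the start site ran from 500 to 5339 bp with a median of 1724 bp, and 54.5% lay within 2000 bp. The median gene length was 23488 bp, so that the peaks stood at a median of 7.51% of the way into the gene, and 82.9% were in the first 25% of its length. In all, 1156 of the 1165 lay wholly inside the gene, and 1118 were in protein-coding genes. At a median width of 275 bp they were narrower than promoter peaks, at 343 bp. Each of 51 genes held 2 gene-body peaks and none of the 1114 genes held more. At the distance threshold, 28 gene-body peaks lay within 20 bp above 500 bp, and 22 peaks that otherwise met the rule lay within 20 bp below it. The authors had assigned genes only to peaks near a start site, and of the 8331 peaks with no gene 2626 lay inside the span of a gene named elsewhere in the tables. Those deeper peaks are not counted as gene-body peaks here. Whether a peak is exonic or intronic was not analysed here.

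Values are the authors' normalized counts, background-corrected, divided by size factors and rounded, and can be compared only within a table. Nuclear values summed to between 721040 and 952851 per library in the shared table and between 291709 and 421003 in the A-Fos table. The mitochondrial peak, left out of all fits, held 72% to 94.2% of the summed values. Replicates of the tested gene-body peaks differed by a median of 0.26 (gata4:EGFP+), 0.45 (junba OE), 0.29 (junbb OE) and 0.33 (myl7:nucDsRed+) on the log2 scale. The junba OE replicate 2 library held 50 gene-body peaks at 0, more than any other. The cell type label was checked on fixed marker genes over all nuclear peaks. The 11 peaks of cardiomyocyte markers summed to 511 and 513 in gata4:EGFP+, 558 and 311 in junba OE, 298 and 273 in junbb OE and 1222 and 1360 in myl7:nucDsRed+ libraries. The 16 peaks of endothelial and endocardial markers summed to 300 and 304 in gata4:EGFP+, 548 and 579 in junba OE, 809 and 896 in junbb OE and 171 and 158 in myl7:nucDsRed+ libraries. In the same order, the 5 leukocyte marker peaks summed to 98 and 99, 69 and 113, 59 and 63, and 54 and 35. The 3 erythroid and thrombocyte peaks summed to 81 and 88, 41 and 24, 46 and 55, and 149 and 160. Most of each sum came from 1 gene-body peak, in sptb, which had 58 and 72, 29 and 20, 36 and 35, and 132 and 131. The 7 epicardial and fibroblast peaks summed to 273 and 292, 184 and 223, 233 and 237, and 234 and 250. The 2 smooth muscle and pericyte peaks summed to 37 and 19, 20 and 14, 19 and 27, and 39 and 58. The 1 neural peak had 26 and 28, 14 and 26, 11 and 14, and 6 and 4. In bulk libraries fewer cells of a type and a less open site per cell cannot be told apart. The part of these marker differences in the results below was not tested. In the A-Fos table, 1 of the 11 cardiomyocyte markers had a peak, at 17, 20 and 40 in A-Fos (+) and 20, 31 and 30 in A-Fos (-) libraries.

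The most open gene-body peaks were listed after their values were seen. The peak 1195 bp into sin3aa, which encodes a scaffold of histone deacetylase complexes, had the highest mean of the shared table at 391. It stood at 330 and 331 in gata4:EGFP+, 376 and 470 in junba OE, 336 and 387 in junbb OE and 426 and 472 in myl7:nucDsRed+ libraries. The second highest peak, in the gene with the identifier ENSDARG00000116076 at chr7:7642-8470 (danRer11, coordinates as deposited), differed more between groups. It had 205 and 196 in gata4:EGFP+, 420 and 228 in junba OE and 283 and 162 in junbb OE against 745 and 616 in myl7:nucDsRed+ libraries, and fell in all 3 comparisons (log2 change -1.73, -1.12 and -1.64). The junba OE call had an adjusted p of up to 0.102 with 1 library left out. The sin3aa gene also held the highest gene-body peak of the A-Fos table, with 279, 222 and 225 in A-Fos (+) and 243, 224 and 291 in A-Fos (-) libraries, which overlap. A peak in zbtb7a, which encodes a zinc finger repressor, was among the 6 highest of both tables.

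Regenerating cells were compared with uninjured ones, sorted on another reporter, to ask which intragenic sites were more or less open in them. Of 1036 gene-body peaks tested, 117 were higher in gata4:EGFP+ than in myl7:nucDsRed+ cells, or 11.3%, and 87 were lower, or 8.4% (limma, adjusted p under 0.05). Over all 14776 tested peaks the shares were 12.3% higher and 6.61% lower, so that the shares in gene-body peaks were near those of peaks in general. Promoter peaks, within 500 bp of a start site, gave 2.57% higher and 7.79% lower, and peaks with no assigned gene gave 20.3% higher and 5.24% lower. The median log2 change was -0.14 in gene-body peaks and -0.06 in all tested peaks. The 117 higher peaks had median values of 42 and 40 in gata4:EGFP+ libraries and of 9 in each myl7:nucDsRed+ library. The 87 lower peaks had median values of 21 in each gata4:EGFP+ library and of 59 and 68 in myl7:nucDsRed+ libraries.

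The share that was higher was larger at greater distance from the start site. It was 4.06% of 345 peaks at 500 to under 1000 bp, 10.6% of 245 at 1000 to under 2000 bp, 16.5% of 231 at 2000 to under 3500 bp and 18.1% of 215 beyond that. The lower shares in the same order were 9.28%, 10.2%, 6.49% and 6.98%. The higher share of the nearest bin was thus close to that of promoters, and that of the farthest bin close to that of peaks with no assigned gene, both by description. The bins were also counted under other settings, an analysis chosen after seeing the data. The order of the higher shares was the same with equal totals, with quantile normalization, with libraries centred on promoter peaks and with only peaks of a mean of at least 30 (2.38%, 6.03%, 8.51% and 8.54%). With a pseudocount of 1 the farthest bin stood below its neighbour (2.9%, 5.71%, 9.96% and 8.84%). It also did so without gata4:EGFP+ replicate 1 (1.45%, 3.27%, 4.76% and 4.19%), without myl7:nucDsRed+ replicate 1 (2.9%, 7.35%, 9.52% and 9.3%) and without its replicate 2 (2.32%, 4.49%, 9.96% and 9.3%). Without gata4:EGFP+ replicate 2 the shares were 0.87%, 1.63%, 5.19% and 6.05%. The nearest bin had the smallest share in each of these settings.

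**Figure D1:**
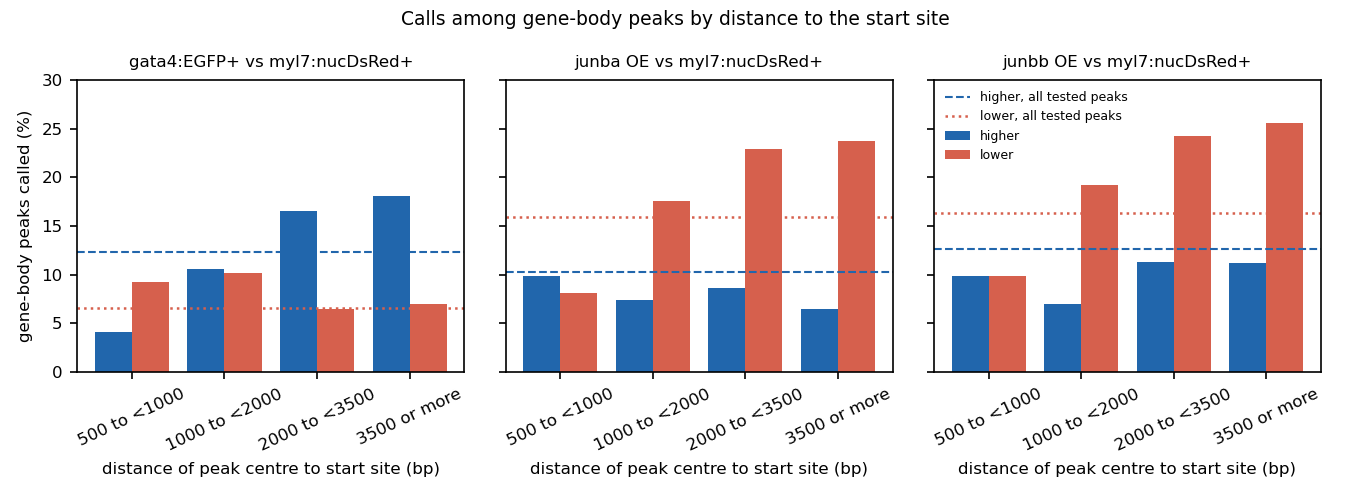
Share of tested gene-body peaks called higher (blue) or lower (red) in each of 4 bins of distance to the start site, for gata4:EGFP+, junba OE and junbb OE cells against myl7:nucDsRed+ cells, with the shares over all tested peaks as lines. The blue bars run from 4.06% to 18.1% with distance in gata4:EGFP+ cells, and the red bars from 8.12% to 23.7% in junba OE and from 9.86% to 25.6% in junbb OE cells.

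The number of calls was smaller with any library left out. It was 33 higher and 19 lower without gata4:EGFP+ replicate 1, 32 and 13 without replicate 2, 70 and 43 without myl7:nucDsRed+ replicate 1, and 62 and 25 without its replicate 2, and 21 higher and 6 lower peaks were called in all 4 of these fits. The split of higher and lower calls depended on the scaling: 117 and 87 as deposited, 139 and 29 with equal totals, 142 and 54 with libraries centred on promoter peaks, and 117 and 132 with quantile normalization. Over all tested peaks the counts in the same order were 1818 and 977, 2163 and 300, 2242 and 506, and 1822 and 1418. Calls over all tested peaks were also fewer with any library left out, so that neither dependence was particular to gene-body peaks. Calls made in every omission were counted for gene-body peaks only.

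The largest changes here and below were ranked by a naming rule, with 1 peak per gene. It took called peaks with non-overlapping groups, a gene symbol and a mean at or above the median of tested peaks. Some peaks of lower mean changed more than several named ones. One was in gna11b, with 38 and 40 in gata4:EGFP+ against 2 and 4 in myl7:nucDsRed+ libraries (log2 change 2.47). By the rule the largest increase was in cd63, which encodes a tetraspanin of late endosomes and exosomes. Its peak lay 5001 bp from the start site at chr23:32070968-32071370 and had 68 and 81 in gata4:EGFP+ libraries against 5 and 4 in myl7:nucDsRed+ libraries, a log2 change of 3.06 ± 0.37 (SE, adjusted p = 5.14e-05). The cd63 promoter peak had 15 and 22 against 40 and 33 and did not pass (log2 change -0.83, adjusted p = 0.118). The peak in glis2a, which encodes a zinc finger transcription factor, had 120 and 100 against 16 and 10 (2.69 ± 0.36, adjusted p = 8.85e-05). The peak in sh3bp5a, which encodes an SH3 domain-binding protein, had 88 and 62 against 9 and 6 (2.67 ± 0.35, adjusted p = 8.32e-05). At cd63, glis2a and sh3bp5a both gata4:EGFP+ libraries were several times above both myl7:nucDsRed+ libraries.

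Also among the 10 largest increases by the naming rule were sorbs3, msna and ccnd1. The peak in sorbs3, which encodes the focal adhesion adaptor vinexin, had 84 and 77 in gata4:EGFP+ and 18 and 13 in myl7:nucDsRed+ libraries (log2 change 2.07). That in msna, which encodes moesin, a linker of actin to the cell membrane, had 134 and 150 against 34 and 48 (1.69 ± 0.28, adjusted p = 0.000455). That in ccnd1, which encodes cyclin D1 and so drives entry into the cell cycle, had 39 and 35 against 5 and 9 (1.83, adjusted p = 0.00176). The groups did not overlap in any of the 3, as the rule for naming peaks required. The remaining increases were in glrbb (glycine receptor subunit, 2.41), stk38a (a kinase, 2.08), si:rp71-5o12.3 (1.89) and ildr2 (1.64).

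The junbb gene itself held a peak among the largest decreases by the naming rule. Its peak, 772 bp from the start site at chr3:7654930-7655644, had 63 and 40 in gata4:EGFP+ against 183 and 173 in myl7:nucDsRed+ libraries (log2 change -1.73 ± 0.23, adjusted p = 8.85e-05). The junbb promoter peak had 51 and 48 against 50 and 66 (-0.20, adjusted p = 0.693). The junbb gene spans 1404 bp, so that this peak covers much of its body. In junbb OE libraries the same peak had 199 and 227, a log2 change of 0.25 against the same controls (adjusted p = 0.457). Whether reads of a junbb transgene add to this peak was not tested, so that its values do not check the transgene. The gata4:EGFP+ and myl7:nucDsRed+ groups did not overlap, as the naming rule required, and the values of junbb OE lay above both.

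Peaks in tnnc1a, bag3 and bmpr1aa were among the 10 largest decreases by the naming rule in gata4:EGFP+ cells. The peak in tnnc1a, which encodes cardiac troponin C, had 60 and 81 against 172 and 203 in myl7:nucDsRed+ libraries (log2 change -1.36 ± 0.29, adjusted p = 0.00286). That in bag3, which encodes a co-chaperone of Z-disc protein turnover, had 61 and 49 against 171 and 143 (-1.43 ± 0.26, adjusted p = 0.00104), and the bag3 promoter fell too (-1.02, adjusted p = 0.0158). That in bmpr1aa, which encodes a type I BMP receptor, had 54 and 66 against 177 and 149 (-1.37, adjusted p = 0.00675). By the same rule none of these groups overlapped. The other decreases of the 10 were si:ch211-226h7.6 (-1.95), ttbk1b (tau-tubulin kinase, -1.79), flad1 (FAD synthase, -1.50), pln1 (-1.49), si:ch211-225o7.1 (-1.42) and pim1 (a serine/threonine kinase, -1.41).

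Of these 20 peaks 8 lost the call when 1 library was left out. With gata4:EGFP+ replicate 1 left out, tnnc1a had an adjusted p of 0.0708, and the values were 0.0913 for bmpr1aa, 0.0772 for flad1, 0.081 for pln1, 0.0914 for si:ch211-225o7.1 and 0.0876 for ildr2. With gata4:EGFP+ replicate 2 left out the adjusted p was 0.126 for pim1, 0.113 for si:rp71-5o12.3, 0.0564 for flad1, 0.0504 for pln1, 0.0759 for si:ch211-225o7.1 and 0.0528 for ildr2. Without myl7:nucDsRed+ replicate 1 it was 0.183 for si:rp71-5o12.3, 0.0907 for pim1, 0.0757 for bmpr1aa, 0.0758 for flad1, 0.0586 for pln1 and 0.0838 for si:ch211-225o7.1. Without myl7:nucDsRed+ replicate 2 it was 0.0811 for ildr2 and 0.0501 for si:ch211-225o7.1.

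**Figure D2:**
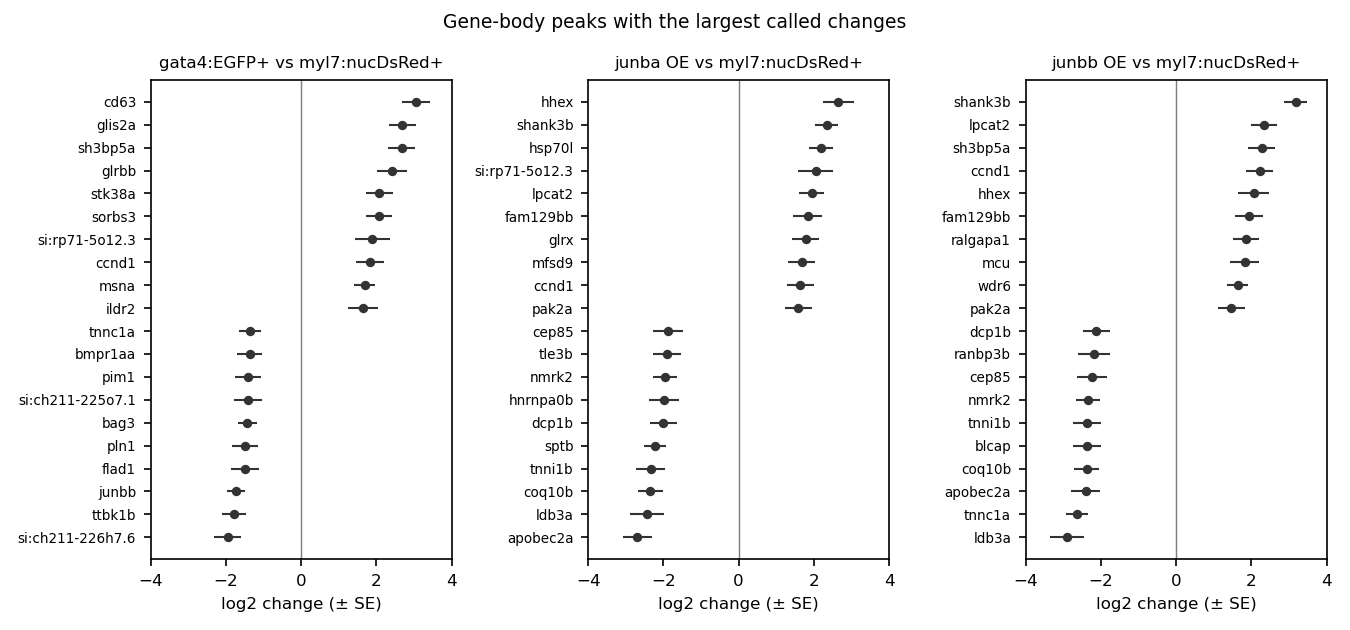
Log2 change with its standard error of the 10 gene-body peaks with the largest increase and the 10 with the largest decrease by the naming rule in each comparison with myl7:nucDsRed+ cells, 1 peak per gene. The rule took called peaks with non-overlapping groups, a gene symbol and a mean at or above the median of tested peaks. The panel of gata4:EGFP+ cells runs from -1.95 in si:ch211-226h7.6 to 3.06 in cd63, and that of junbb OE cells from -2.90 in ldb3a to 3.18 in shank3b.

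Overexpression of junba or junbb in uninjured hearts was compared with the same myl7:nucDsRed+ libraries, so that these results share their controls with the regeneration results and with each other. In junba OE cells 86 gene-body peaks were higher, or 8.3% against 10.3% of all tested peaks, and 175 were lower, or 16.9% against 15.9%. In junbb OE cells 101 were higher, or 9.75% against 12.6%, and 192 were lower, or 18.5% against 16.3%. Lower calls thus outnumbered higher ones in both, and the shares were near those of all peaks. The median log2 change was -0.14 in junba OE cells, with -0.07 over all tested peaks, and -0.08 in junbb OE cells, with -0.02 over all tested peaks.

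In both groups lower calls were a larger share of the gene-body peaks farther from the start site. From the nearest bin to the farthest, 8.12%, 17.6%, 22.9% and 23.7% of gene-body peaks were lower in junba OE cells. In junbb OE cells these shares were 9.86%, 19.2%, 24.2% and 25.6%. Higher calls did not follow that order, with 9.86%, 7.35%, 8.66% and 6.51% in junba OE and 9.86%, 6.94%, 11.3% and 11.2% in junbb OE cells. Promoter peaks were lower in 5.52% of cases in either group. With equal totals the lower shares were 6.38%, 11%, 15.2% and 17.2% in junba OE cells. In junbb OE cells they were 5.51%, 13.5%, 17.7% and 15.8%, where the last 2 bins changed order. These bins also did so with quantile normalization (22.9% and 20.9%) and with a pseudocount of 1 (22.5% and 20%). The same happened with myl7:nucDsRed+ replicate 1, its replicate 2 or junbb OE replicate 1 left out. In junba OE cells it happened without myl7:nucDsRed+ replicate 1. With a mean of at least 30 the middle 2 bins of junbb OE cells changed order (20.7% and 20.2%). With any 1 library left out the farthest bin had at least 10.7% lower in junba OE and 13.5% in junbb OE cells, and the nearest bin at most 9.57% and 7.54%.

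The junba OE counts were 46 higher and 115 lower without myl7:nucDsRed+ replicate 1, 51 and 76 without its replicate 2, 92 and 201 without junba OE replicate 1, and 50 and 110 without junba OE replicate 2. The junbb OE counts were 61 and 137 without myl7:nucDsRed+ replicate 1, 55 and 102 without its replicate 2, 49 and 127 without junbb OE replicate 1, and 34 and 102 without junbb OE replicate 2. Higher calls made up 33% of junba OE calls as deposited and 21.4% with libraries centred on promoter peaks, and 34.5% of junbb OE calls as deposited, 21% with that centring and 53.5% with equal totals. Over all tested peaks the higher and lower counts in the same order were 1515 and 2342, 1118 and 2939, 1855 and 2404, 1363 and 2981, and 2661 and 1584. Both counts over all tested peaks also rose without junba OE replicate 1 and fell in every other omission. Calls made in all 4 omissions of a comparison were counted for gene-body peaks only. All 4 omissions called 21 higher and 49 lower peaks in junba OE, and 24 higher and 71 lower in junbb OE cells.

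The largest increase by the naming rule in junbb OE cells was in shank3b, which encodes a scaffold protein known from synapses. Its peak, 3791 bp from the start site at chr4:9582518-9583325, had 164 and 168 in junbb OE libraries against 12 and 16 in myl7:nucDsRed+ libraries (log2 change 3.18 ± 0.31, adjusted p = 1.02e-06). In junba OE libraries it had 101 and 81 (2.34 ± 0.31, adjusted p = 4.67e-05). Its promoter peak had 18 and 19 in junbb OE and 18 and 16 in junba OE against 12 and 13 in myl7:nucDsRed+ libraries, which passed in neither (adjusted p = 0.426 in junbb OE and 0.552 in junba OE). All 4 overexpression libraries thus stood far above the controls in the gene body, and only slightly above them at the promoter.

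The peak in hhex, a homeobox gene of endothelial, blood and liver development, had 60 and 128 in junba OE and 53 and 61 in junbb OE against 15 and 6 in myl7:nucDsRed+ libraries (log2 change 2.65 in junba OE, adjusted p = 0.000158, and 2.06 in junbb OE, adjusted p = 0.000758). That in ccnd1 had 39 and 26 in junba OE and 48 and 52 in junbb OE against 5 and 9 (1.64 and 2.22). That in lpcat2, which encodes an enzyme of phospholipid remodelling, had 51 and 85 in junba OE and 68 and 112 in junbb OE against 12 and 15 (1.94 and 2.33). By the naming rule no overexpression library overlapped a control in these genes. The 2 junba OE libraries differed most in hhex.

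Increases in fam129bb (1.83 in junba OE and 1.94 in junbb OE) and pak2a (1.58 and 1.46) were also among the 10 largest by the naming rule in both. The pak2a gene encodes a kinase activated by small GTPases. The others in junba OE cells were hsp70l (2.19, and 1.42 at its promoter, adjusted p = 0.00225), si:rp71-5o12.3 (2.05), glrx (glutaredoxin, 1.78) and mfsd9 (1.67). Of these, si:rp71-5o12.3 lost the call without myl7:nucDsRed+ replicate 1 (adjusted p = 0.089). In junbb OE cells the others were sh3bp5a (2.27), ralgapa1 (a subunit of a Ral GTPase-activating complex, 1.86), mcu (the mitochondrial calcium uniporter, 1.82) and wdr6 (1.63). The mcu promoter peak gave 0.29 in junbb OE cells and did not pass (adjusted p = 0.43).

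Peaks in apobec2a, coq10b and nmrk2 were among the 10 largest decreases by the naming rule in both. The peak in apobec2a, a muscle-enriched member of the cytidine deaminase family, lay 3486 bp from the start site and had 10 and 6 in junba OE and 17 and 6 in junbb OE against 70 and 86 in myl7:nucDsRed+ libraries (-2.69 and -2.41). The peak in coq10b, which encodes a coenzyme Q-binding protein of mitochondria, had 35 and 14 in junba OE and 24 and 20 in junbb OE against 129 and 142 (-2.35 and -2.38). The peak in nmrk2, which encodes a nicotinamide riboside kinase of muscle, had 36 and 24 in junba OE and 23 and 20 in junbb OE against 102 and 165 (-1.97 and -2.35). By the naming rule the control libraries were above every overexpression library in all 3. The coq10b promoter passed in neither (adjusted p = 0.104 in junba OE and 0.165 in junbb OE).

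Others of the 10 in both were dcp1b (an mRNA decapping protein, -2.01 in junba OE and -2.12 in junbb OE) and cep85 (a centrosomal protein, -1.88 and -2.24). Among the 10 in junba OE cells were also sptb (beta-spectrin of the red cell membrane skeleton, -2.23), hnrnpa0b (an RNA-binding protein, -1.99) and tle3b (a Groucho-type corepressor, -1.90), and in junbb OE cells blcap (-2.37) and ranbp3b (a Ran-binding protein, -2.18). The hnrnpa0b and blcap promoter peaks gave 0.05 each and did not pass (adjusted p = 0.93 in junba OE and 0.939 in junbb OE).

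The sarcomere, the contractile unit of muscle, and its Z-disc anchors were covered by 12 gene-body peaks in 11 of 75 listed genes. In gata4:EGFP+ cells none of the 12 was higher and 2 were lower, with a median log2 change of -0.84 against -0.06 over all tested peaks. In junba OE cells none was higher and 8 were lower, with a median of -1.49 against -0.07, and in junbb OE cells none was higher and 10 were lower, with a median of -1.72 against -0.02. The background of lower calls was 6.61%, 15.9% and 16.3% in the 3 comparisons. No sarcomere gene had a gene-body peak in the A-Fos table.

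In the thin filament, the peaks of both troponin genes fell in junba OE and junbb OE cells. At tnnc1a, junba OE libraries had 74 and 47 and junbb OE libraries 22 and 30 against 172 and 203 in myl7:nucDsRed+ libraries (-1.58 and -2.64 ± 0.29). At tnni1b, which encodes a troponin I, the peak 3177 bp from the start site had 89 and 82 in gata4:EGFP+, 32 and 8 in junba OE and 15 and 18 in junbb OE against 105 and 107 in myl7:nucDsRed+ libraries. This was a log2 change of -0.30 in gata4:EGFP+ (adjusted p = 0.635), -2.34 in junba OE (adjusted p = 0.000263) and -2.37 in junbb OE cells (adjusted p = 0.000138). The gata4:EGFP+ libraries were thus near the controls at tnni1b, and the overexpression libraries far below.

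At the Z-disc, ldb3a, which encodes a PDZ and LIM domain protein that holds alpha-actinin, had 2 gene-body peaks. The one at 2126 bp had 46 and 49 in gata4:EGFP+, 27 and 4 in junba OE and 9 and 6 in junbb OE against 77 and 99 in myl7:nucDsRed+ libraries. The one at 3737 bp had 28 and 26 in gata4:EGFP+, 12 and 2 in junba OE and 4 and 6 in junbb OE against 70 and 59. Both fell in junba OE (-2.44 and -2.67) and junbb OE cells (-2.90 and -2.80). Their changes of -0.82 and -1.12 in gata4:EGFP+ cells did not pass (adjusted p = 0.212 and 0.0711). The 2 junba OE libraries differed widely at ldb3a, replicate 2 being the lower.

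Of the remaining 8 sarcomere peaks, trim55b (a muscle ubiquitin ligase) fell in all 3 comparisons (-1.19, -1.83 and -1.69 in the order gata4:EGFP+, junba OE and junbb OE). The peaks in mybpc3 (cardiac myosin-binding protein C, -1.23 and -1.75), nexn (nexilin, -1.60 and -2.03) and xirp1 (a Xin repeat protein, -1.39 and -1.68) fell in junba OE and junbb OE cells. Those in desma (desmin, -1.63) and synpo2lb (-1.58) fell in junbb OE cells. Neither passed in junba OE cells, with -0.88 for desma (adjusted p = 0.0837) and -1.10 for synpo2lb (adjusted p = 0.0683). Those in flncb (filamin C) and obsl1a passed in none of the 3, and obsl1a had 30 and 28 in gata4:EGFP+ libraries against 12 and 12 (1.00, adjusted p = 0.106).

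With 1 library left out the number of lower sarcomere peaks in gata4:EGFP+ cells was 0 without gata4:EGFP+ replicate 1, 1 without its replicate 2, 2 without myl7:nucDsRed+ replicate 1 and 1 without its replicate 2. In junba OE cells it was 6 without myl7:nucDsRed+ replicate 1, 4 without its replicate 2, 9 without junba OE replicate 1 and 5 without junba OE replicate 2. In junbb OE cells it was 9 without myl7:nucDsRed+ replicate 1, 8 without its replicate 2, 10 without junbb OE replicate 1 and 6 without junbb OE replicate 2. The trim55b call in gata4:EGFP+ cells was lost without gata4:EGFP+ replicate 1 (adjusted p = 0.248), gata4:EGFP+ replicate 2 (0.152) and myl7:nucDsRed+ replicate 2 (0.393). Other scalings gave 1 to 5 lower sarcomere peaks in gata4:EGFP+, 6 to 10 in junba OE and 10 in junbb OE cells.

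**Figure D3:**
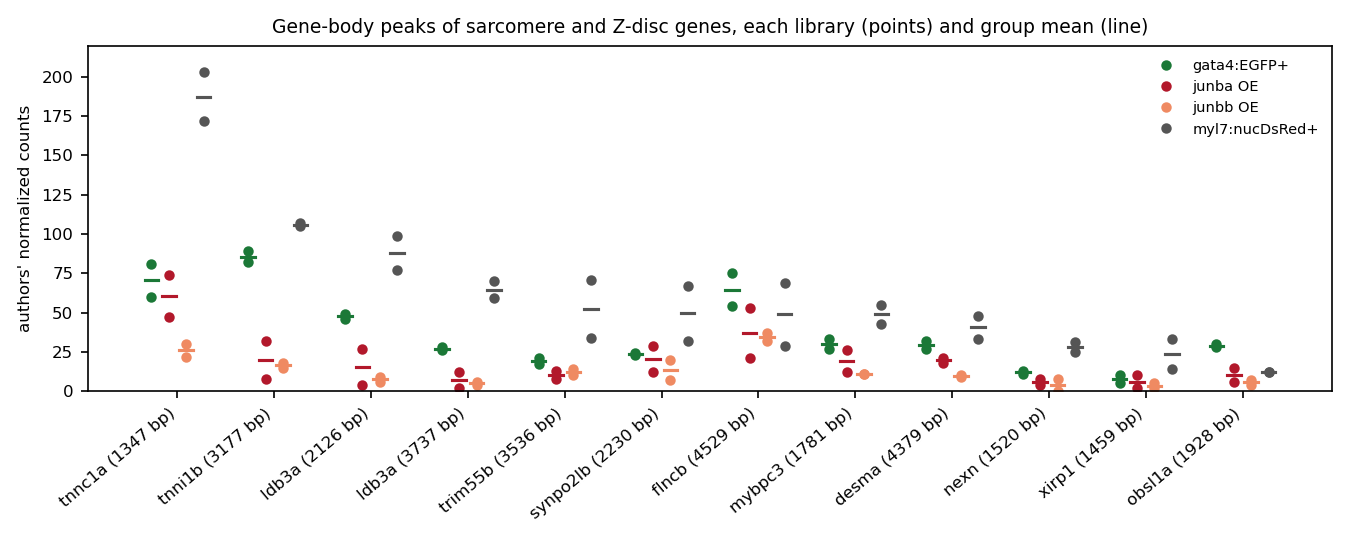
Authors' normalized counts of the 12 gene-body peaks in sarcomere and Z-disc genes, with each library as a point and each group mean as a line, and with the distance to the start site in brackets. At tnnc1a the points lie at 60 and 81 in gata4:EGFP+, 74 and 47 in junba OE, 22 and 30 in junbb OE and 172 and 203 in myl7:nucDsRed+ libraries.

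Genes of energy metabolism had 9 tested gene-body peaks in 8 of 49 listed genes. None was higher and 2 were lower in gata4:EGFP+ cells, 1 was higher and 3 were lower in junba OE cells, and none was higher and 4 were lower in junbb OE cells. Over all tested peaks 6.61%, 15.9% and 16.3% were lower, and 12.3%, 10.3% and 12.6% higher, in the same order. The ldha peak 1286 bp from the start site, in the gene of lactate dehydrogenase A, had 11 and 16 in gata4:EGFP+, 18 and 4 in junba OE and 14 and 17 in junbb OE against 46 and 70 in myl7:nucDsRed+ libraries. It fell in all 3 (-1.75, -2.10 and -1.60). The second ldha peak, 614 bp from the start site, had 40 and 44, 33 and 61, and 53 and 46 in the same order against 33 and 37, and passed in none. The difference between the 2 ldha peaks was not tested.

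The peak in ogdha, which encodes a subunit of the oxoglutarate dehydrogenase complex, fell in gata4:EGFP+ cells, with 51 and 66 against 137 and 121 (-1.08, adjusted p = 0.00459). That in aldoaa, which encodes the glycolytic aldolase A, fell in junba OE (98 and 106, -0.95) and junbb OE cells (94 and 120, -0.90) against 204 and 200. That in acadvl (a long-chain acyl-CoA dehydrogenase) fell in junba OE (-1.78) and junbb OE cells (-1.28). That in slc2a1b (a glucose transporter) fell in junbb OE cells (-0.95), and that in pfkla (phosphofructokinase) rose in junba OE cells (1.07). The acadvl call in junbb OE cells was lost in every omission of 1 library (log2 change from -1.36 to -1.19). Its call in junba OE cells was lost without junba OE replicate 2 (-1.21). The slc2a1b call was lost without myl7:nucDsRed+ replicate 1, without junbb OE replicate 1 and without junbb OE replicate 2. With 1 library left out the ldha call reached an adjusted p of 0.105 in gata4:EGFP+ (without gata4:EGFP+ replicate 1) and 0.108 in junbb OE cells (without myl7:nucDsRed+ replicate 2). That of ogdha reached 0.0888 without gata4:EGFP+ replicate 1, that of aldoaa in junbb OE 0.0509 without junbb OE replicate 1, and that of pfkla 0.191 without junba OE replicate 2.

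The AP-1 subunits and their bZIP partners had 9 tested gene-body peaks in 8 of 25 listed genes. In gata4:EGFP+ cells 3 rose and 1 fell, beside 12.3% higher and 6.61% lower over all tested peaks. The bach1b peak 1274 bp from the start site, in the gene of a Maf-binding repressor, had 82 and 98 against 29 and 27 in myl7:nucDsRed+ libraries (1.52 ± 0.30, adjusted p = 0.00171). The jdp2a peak, in the gene of a Jun dimerization protein, had 54 and 42 against 19 and 15 (1.27, adjusted p = 0.0155), and the maff peak, in the gene of a small Maf protein, had 50 and 53 against 26 and 13 (1.26, adjusted p = 0.0265). The junbb peak fell, as given above.

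The remaining 5 did not pass: the second bach1b peak, fosb, fosl1a, atf4a and bach1a ran from -0.42 to 0.56. None of the 9 passed in junba OE cells, and in junbb OE cells 1 did, jdp2a, beside 12.6% of all tested peaks higher. It rose, with 42 and 36 against 19 and 15 (1.00, adjusted p = 0.0356). The calls of jdp2a and maff in gata4:EGFP+ cells were lost without gata4:EGFP+ replicate 1 (adjusted p = 0.172 and 0.148), gata4:EGFP+ replicate 2 (0.0733 and 0.172) and myl7:nucDsRed+ replicate 2 (0.0991 and 0.24), and that of bach1b without gata4:EGFP+ replicate 2 (0.0511). That of jdp2a in junbb OE cells was lost in each of its 4 omissions, with adjusted p-values from 0.0682 without myl7:nucDsRed+ replicate 1 to 0.167 without junbb OE replicate 1. A gene-body peak labelled jdp2 was named after its values were seen. The list holds jdp2a and jdp2b but not that symbol, and whether jdp2 is one of these genes was not checked. The peak had 12 and 16 in junba OE and 12 and 19 in junbb OE against 37 and 45 in myl7:nucDsRed+ libraries. It fell in both (-1.28, adjusted p = 0.0169, and -1.18, adjusted p = 0.0228), with adjusted p-values of up to 0.113 and 0.171 with 1 library left out.

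Genes of matrix, adhesion and actin had few gene-body peaks, and their background is the share of all tested peaks given above for the metabolism genes. Of 4 tested in matrix and adhesion genes, timp2b (a metalloproteinase inhibitor) rose in all 3 comparisons (1.55, 1.49 and 1.68), and itga5 (the fibronectin receptor subunit alpha 5 integrin) fell in all 3 (-1.64, -1.14 and -1.95). The lamb1a peak (laminin) rose in junba OE (1.77) and junbb OE cells (1.93), and the col5a2a peak (a fibrillar collagen) rose in gata4:EGFP+ (1.47) and junbb OE cells (1.37). The itga5 peak had 18 and 10 in gata4:EGFP+, 19 and 24 in junba OE and 11 and 9 in junbb OE against 43 and 65 in myl7:nucDsRed+ libraries. Apart from itga5 in junbb OE cells, each of these calls was lost in at least 1 omission, with adjusted p-values of up to 0.577 for col5a2a in junbb OE cells without myl7:nucDsRed+ replicate 1.

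Of 4 peaks in genes of actin protrusion and focal contacts, msna and lims1 (a LIM protein of integrin contacts) rose in gata4:EGFP+ cells (1.69 and 1.17) and rhoaa and tns3.1 did not pass (-0.33 and -0.05). The msna peak also rose in junbb OE cells, with 75 and 81 against 34 and 48 (0.87, adjusted p = 0.0221), but not past the threshold without junbb OE replicate 1, junbb OE replicate 2 or myl7:nucDsRed+ replicate 1 (0.0748, 0.136 and 0.166). It had 50 and 37 in junba OE libraries, which overlap the controls. The lims1 call was lost in all 4 omissions (adjusted p from 0.136 without myl7:nucDsRed+ replicate 2 to 0.238 without gata4:EGFP+ replicate 1).

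In the other pathway lists, 1 of 2 calcium handling peaks fell in gata4:EGFP+ cells, in calm1a (calmodulin, -0.93, adjusted p = 0.00699, and 0.118 without gata4:EGFP+ replicate 2), beside 6.61% of all tested peaks lower. The mcu and pln1 peaks named above are in none of these lists. None of 2 peaks in cardiac transcription factor and regeneration genes (mef2aa and ppargc1b) and none of 7 in cytokine and NF-kappaB genes passed in these 3 comparisons.

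Markers of other cell types had few gene-body peaks. The kdrl peak, in the gene of an endothelial VEGF receptor, had 4 and 5 in gata4:EGFP+, 24 and 22 in junba OE and 31 and 38 in junbb OE against 3 and 10 in myl7:nucDsRed+ libraries. It rose in junba OE (1.35, adjusted p = 0.0214) and junbb OE cells (1.84, adjusted p = 0.00232). The fli1b peak, in the gene of an endothelial ETS factor, had 20 and 24 in junba OE and 41 and 15 in junbb OE against 3 and 4 and rose in both (1.67 and 1.84), and the third, egfl7, passed in neither. The calls of kdrl and fli1b in junba OE cells were lost without myl7:nucDsRed+ replicate 1 (adjusted p = 0.205 and 0.0586), and that of fli1b in junbb OE without junbb OE replicate 1 (0.117).

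Only 1 gene of the erythroid and thrombocyte list, sptb, had a gene-body peak. The sptb peak fell in all 3, with 58 and 72 in gata4:EGFP+, 29 and 20 in junba OE and 36 and 35 in junbb OE against 132 and 131. In gata4:EGFP+ cells that call was lost in every omission (adjusted p up to 0.215 without gata4:EGFP+ replicate 1). Of 2 epicardial and fibroblast peaks tgfb3 fell in gata4:EGFP+ cells (-0.73, adjusted p = 0.0239, lost in every omission) and dcn passed in none. No leukocyte gene-body peak reached the mean for testing in the shared table, and smooth muscle and neural markers had none. The part of endothelial, cardiomyocyte and erythroid markers in the other calls was not tested.

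A promoter peak of the same gene could be set beside 316 tested gene-body peaks (a gene with 2 gene-body peaks gives 2 pairs), and the difference of the 2 log2 changes was tested within libraries, with p-values adjusted over all 316 pairs. The gene-body peak moved up relative to its promoter in 26 pairs in gata4:EGFP+ cells, or 8.23%, and down in 5, or 1.58%. In junba OE cells 13 pairs moved up, or 4.11%, and 51 down, or 16.1%, and in junbb OE cells 13 moved up, or 4.11%, and 42 down, or 13.3%. Counted by the calls of the single peaks, in gata4:EGFP+ cells 41 of the 316 pairs were called in the gene body alone, 32 at the promoter alone, 10 at both in 1 direction and 5 at both in opposite directions. These counts were, for junba OE cells, 76, 32, 13 and 4, and for junbb OE cells 71, 28, 26 and 5.

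The widest gap in regenerating cells was at cd63, at 3.89 ± 0.45 on the log2 scale (adjusted p = 0.000152). Next came ythdf2, which encodes a reader of RNA methylation, where the gene-body peak had 44 and 40 in gata4:EGFP+ against 10 and 1 in myl7:nucDsRed+ libraries and the promoter 35 and 24 against 60 and 32 (difference 2.83). At si:ch73-43g23.1 both peaks were called, in opposite directions: 23 and 36 against 5 and 11 in the gene body and 20 and 24 against 52 and 67 at the promoter (2.67). The others of the 5 largest were ENSDARG00000115428 (2.83) and abca2 (2.44). On the negative side stood si:ch211-147a11.3 (-2.34), slc16a1b (a lactate transporter, -1.79), anp32b (-1.76), pisd (-1.71) and junbb (-1.53).

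Of these 10, cd63, ythdf2, ENSDARG00000115428 and si:ch73-43g23.1 kept an adjusted p of at most 0.0282 with any library left out, and the other 6 did not (largest 0.128 to 0.339). The pair counts in gata4:EGFP+ cells fell to 7 to 10 in all with 1 library left out.

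With overexpression, glud1b, which encodes mitochondrial glutamate dehydrogenase, gave the largest negative difference in both groups. Its gene-body peak 4656 bp from the start site had 1 and 6 in junba OE and 5 and 10 in junbb OE against 29 and 28 in myl7:nucDsRed+ libraries. Its promoter peak had 35 and 33 in junba OE and 38 and 57 in junbb OE against 22 and 13. The difference was -2.87 ± 0.45 in junba OE (adjusted p = 0.00575) and -2.68 ± 0.45 in junbb OE cells (adjusted p = 0.00441). The slc16a1b gene-body peak had 10 and 0 in junba OE and 8 and 4 in junbb OE against 38 and 53, while its promoter had 40 and 37, and 48 and 53, against 28 and 45 (-2.63 and -2.66). In both genes the gene-body values of all 4 overexpression libraries were at most 10, and none of their promoter values was under 33.

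Large negative differences were also seen at psmd1 (a proteasome subunit, -2.59 in each group), si:ch211-212k18.4 (-2.55 and -2.65), pisd (-2.29, junba OE) and tcp11l2 (-2.51, junbb OE). On the positive side were pank1a (pantothenate kinase, 2.36), wasf3b (an activator of actin branching, 2.34), shank3b (2.01), cd63 (1.99) and pak2a (1.98) in junba OE, and shank3b (2.75), gfod2 (2.12), hif1an (1.94), xrcc2 (1.92) and pak2a (1.78) in junbb OE cells. The cd63 gene-body peak had 26 and 20 in junba OE libraries, against 5 and 4. The adjusted p of some differences passed 0.05 with 1 library left out, with largest values of 0.0649 for cd63, 0.0633 for si:ch211-212k18.4 and 0.0555 for psmd1 in junba OE cells. In junbb OE cells they were 0.143 for tcp11l2, 0.137 for xrcc2, 0.105 for hif1an, 0.0878 for gfod2, 0.0635 for pak2a and 0.0584 for si:ch211-212k18.4. Pair counts ran from 14 to 81 in junba OE and from 15 to 44 in junbb OE cells with 1 library left out.

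**Figure D4:**
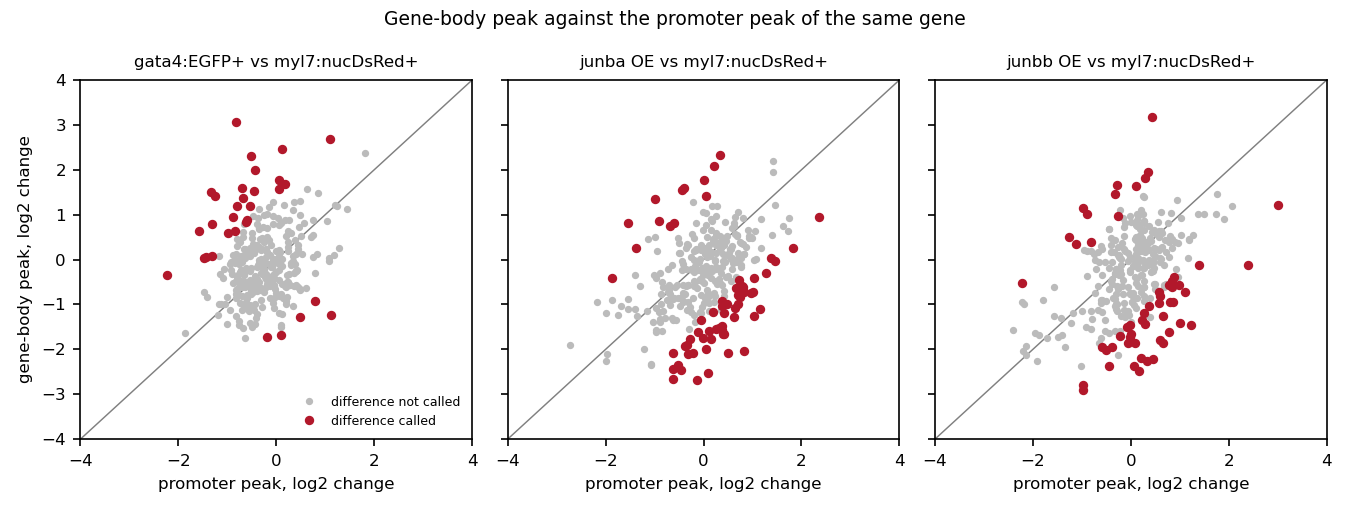
Log2 change of the gene-body peak against that of the promoter peak of the same gene for 316 pairs, in the 3 comparisons with myl7:nucDsRed+ cells, with pairs whose difference was called in red and the line of equal change. In gata4:EGFP+ cells 26 red points lie above the line and 5 below, and in junba OE cells 13 lie above and 51 below.

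Genes with 2 tested gene-body peaks, numbered 42. In gata4:EGFP+ cells 2 had both called in 1 direction and 8 had 1 called. With junba overexpression 9 had both and 11 had 1, and in junbb OE cells 11 had both and 11 had 1. In none of the 3 were the 2 peaks called in opposite directions. Over all tested peaks 18.9% were called in either direction in gata4:EGFP+, 26.1% in junba OE and 28.8% in junbb OE cells. Whether peaks of 1 gene were called together more often than other peaks was not tested. The 5 such genes with the highest values were brd2a, hmga1a, nr1d2b, spag1a and hsp70l. In brd2a, which encodes a bromodomain reader of acetylated histones, the peak at 1331 bp had 148 and 126 in gata4:EGFP+ against 281 and 250 in myl7:nucDsRed+ libraries (-0.93, adjusted p = 0.00424), and the peak at 3755 bp had 42 and 32 against 34 and 27 (0.24, adjusted p = 0.74). The omission of 1 library gave adjusted p-values of up to 0.0791 for the first.

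In the same gene the far peak fell in junba OE cells, with 4 and 14 (-1.43, adjusted p = 0.0163), and in junbb OE cells, with 7 and 14 (-1.23, adjusted p = 0.0332), while the near peak did not pass in either (-0.45 and -0.19). In hmga1a, which encodes an architectural chromatin protein, the far peak at 3852 bp fell in junba OE cells, with 25 and 10 against 52 and 43 (-1.30, adjusted p = 0.00983), and the near one had 126 and 112 against 89 and 101 (0.31, adjusted p = 0.334). In spag1a the far peak at 2876 bp fell in junbb OE cells (-1.41, adjusted p = 0.0204). The nr1d2b peaks passed in none of the 3. The omission of 1 library gave adjusted p-values of up to 0.124 and 0.239 for brd2a, 0.115 for hmga1a and 0.225 for spag1a.

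The 2 overexpression groups were then compared with each other, a comparison within 1 isolation method and cell number. Of 1036 gene-body peaks 2 were higher in junba OE than in junbb OE cells, or 0.193% against 0.0541% of all tested peaks, and none was lower, against 0.0338% (limma; 0.088% of all tested peaks in either direction). At an unadjusted p under 0.05 there were 107, of which 51 were higher and 56 lower, beside 10.1% of all tested peaks, and the median log2 difference was 0.00. The hsp70l peak 967 bp from the start site had 141 and 132 in junba OE against 48 and 28 in junbb OE libraries (1.76 ± 0.32, adjusted p = 0.0223), and the myl7:nucDsRed+ libraries had 32 and 31. The second hsp70l peak, at 2566 bp, had 163 and 132 against 71 and 40 (1.38, adjusted p = 0.113). The hsp70l promoter peak gave 1.54 in the same comparison and did not pass (adjusted p = 0.0519).

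The hsp70l gene encodes an inducible heat shock chaperone and belongs to a family of near-identical copies, so that its values are uncertain where reads were shared with other copies. The eif3hb peak, in the gene of a translation initiation factor subunit and named here outside the rule because it was the only other call, had 56 and 65 against 9 and 9 (2.22 ± 0.41, adjusted p = 0.0241). It stood 727 bp from the start site. Without junbb OE replicate 1 the adjusted p was 0.0899 for hsp70l and 0.25 for eif3hb, without junbb OE replicate 2 it was 0.543 and 0.284, and without junba OE replicate 2 it was 0.0576 for eif3hb. Neither call was made with equal totals or with a pseudocount of 1.

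In the second table, A-Fos (+) cells of injured hearts given 4-hydroxytamoxifen were compared with A-Fos (-) cells given vehicle. Of 425 tested gene-body peaks none was higher or lower, as was none of all 6012 tested peaks (0% and 0%, limma, smallest adjusted p = 1). At an unadjusted p under 0.05 there were 9 gene-body peaks, 5 higher and 4 lower in A-Fos (+) cells, and 200 peaks in all, or 3.33%. The median log2 change was -0.02 in gene-body peaks and 0.00 at promoters, and 224 of the 425, or 52.7%, had a negative change, against 50.6% of all tested peaks. The groups did not overlap in 20 gene-body peaks, or 4.71%, and in 6.92% of all tested peaks. For a gene-body peak the 95% interval of the log2 change, not adjusted for the number of peaks, extended by a median of 0.73 to either side. A call after adjustment needs a larger change than that, so that changes of this size could be missed. None of 71 gene-body and promoter pairs of this table passed.

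The 4 gene-body peaks with the smallest unadjusted p-values, listed after they were seen, were in stk17b, tns3.1, vaspb and actb2. All 4 were lower in A-Fos (+) cells. The next 5, still at an unadjusted p under 0.05, were all higher. They were in rab4b (0.94), brpf3b (0.67), btbd11b (0.86), fbxw4 (0.67) and znf236 (0.57), with unadjusted limma p-values from 0.0377 to 0.0461. The stk17b peak, in the gene of a serine/threonine kinase, had 42, 25 and 9 in A-Fos (+) against 62, 39 and 49 in A-Fos (-) libraries (unadjusted p = 0.0164, adjusted p = 1). The tns3.1 peak, in the gene of a tensin of focal adhesions, had 18, 16 and 20 in A-Fos (+) against 35, 39 and 29 in A-Fos (-) libraries (-0.77 ± 0.32, unadjusted p = 0.027, adjusted p = 1). The actb2 peak, in a beta-actin gene, had 27, 32 and 26 against 44, 52 and 47 (-0.66 ± 0.30, unadjusted p = 0.036, adjusted p = 1). The vaspb peak, in the gene of an actin regulator, had 17, 19 and 0 against 35, 19 and 27 (-1.18 ± 0.52, unadjusted p = 0.036, adjusted p = 1). The groups did not overlap at tns3.1 and actb2 but did, or tied, at stk17b and vaspb, and none of the 4 passed after adjustment. The list of actin protrusion and focal contact genes had 4 tested peaks in this table, none of them called, with a median log2 change of 0.24.

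The values of all gene-body peaks summed to 16501, 15670 and 15478 in A-Fos (+) and to 16705, 15865 and 15493 in A-Fos (-) libraries. Division by size factors brings typical peaks of all libraries to a similar level, so that near-equal sums do not show equal accessibility. The nuclear sums were 421003, 380770 and 373292 in A-Fos (+) and 346399, 291709 and 333416 in A-Fos (-) libraries. As a share of these larger sums gene-body peaks made up 3.92%, 4.12% and 4.15% in A-Fos (+) libraries, against 4.82%, 5.44% and 4.65% in A-Fos (-) libraries. Promoter peaks made up 31.4%, 38.2% and 37% in A-Fos (+) and 35.5%, 48.4% and 42.9% in A-Fos (-) libraries, so that a lower mean share was not particular to gene-body peaks. The mean shares of gene-body peaks were 4.06 ± 0.123% in A-Fos (+) and 4.97 ± 0.416% in A-Fos (-) libraries (SD, n = 3 each), which did not overlap (exact permutation test, two-sided, p = 0.1, the smallest this design can give). Without the 10 highest nuclear peaks of the table the shares were 4.5%, 4.63% and 4.53% in A-Fos (+) and 5.3%, 5.74% and 5.05% in A-Fos (-) libraries. The 10 highest peaks themselves held 12.9%, 11% and 8.56% of the nuclear values in A-Fos (+) and 8.96%, 5.28% and 7.97% in A-Fos (-) libraries.

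The regeneration and A-Fos results share no library and could be set side by side where a gene-body peak of 1 table covered at least 0.5 of the shorter peak of the other. This matched 419 gene-body peaks, 36% of those of the shared table and 95.4% of those of the A-Fos table. Of the 117 peaks higher in gata4:EGFP+ cells 26 had a tested match, or 22.2%, and 12 of these 26 had a negative change with A-Fos, with a median of 0.06. Of the 87 lower peaks 20 had a tested match, or 23%, and 9 of these 20 had a negative change, with a median of 0.04. Of 289 matched peaks not called in regeneration 154 had a negative change, with a median of -0.02.

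The cd63 peak, the most increased of the named peaks in gata4:EGFP+ cells, had 42, 25 and 40 in A-Fos (+) against 57, 51 and 51 in A-Fos (-) libraries (-0.54 ± 0.29, unadjusted p = 0.0793, adjusted p = 1). The msna peak had 36, 41 and 72 against 68, 36 and 24 (0.25 ± 0.35, adjusted p = 1), and the bach1b peak 25, 42 and 23 against 43, 46 and 29 (-0.36 ± 0.33, adjusted p = 1). Values were below the A-Fos (-) range in all A-Fos (+) libraries at cd63, and overlapped at msna and bach1b.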

How the data were processed

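Groups were taken from the sample titles in the labels. The deposited values are a score rather than raw counts: the names of the authors' tables describe counts per peak that were background-corrected and normalized with DESeq size factors, and the values are whole numbers. No count model was therefore used, and counting intervals were not given. The fraction of each peak inside a gene body and its distance to the start site are the authors' annotation, per the file headers. Per the submitters' processing notes, the tools were DESeq and DESeq2 1.18.1, deepTools 2.5.7, MACS2, Picard 2.18.16, STAR 2.6.1d and Trimmomatic 0.36, and the builds danRer11 and GRCz11 are named. Mapping filters, peak thresholds, the shift of reads for the transposase and the background correction are not given in the sources used here.

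Nuclear peaks with a mean of at least 10 were fitted as log2(value + 5) with limma 3.58.1 in R 4.3.3 (trend and robust empirical Bayes, two-sided, Benjamini-Hochberg adjustment over all tested peaks of a table, calls at an adjusted p under 0.05). A fold change on this scale understates the change of low peaks. The shared table was fitted with its 8 libraries and the A-Fos table with its 6. For gene-body and promoter pairs the difference of the log2 values within each library was fitted in the same way, with p-values adjusted over the pairs. Smaller steps used Python 3.11.15, NumPy 2.4.6, pandas 2.3.3 and Matplotlib 3.10.9. The model was also run on simulated data, with the same noise level for all peaks and changes placed only in peaks of a mean of at least 30. That run does not bear on calls at peaks of lower mean.

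Named peaks were the 10 largest changes in each direction among called peaks with non-overlapping groups, a mean at or above the median of tested peaks and a gene symbol, 1 per gene. To these came called peaks of the gene lists, the 5 genes with the most gene-body peaks and the 5 largest called pair differences in each direction. Members, rules and lists were chosen with earlier results of these data known. The shared table gave no symbol for 100 gene-body peaks, of which 72 were filled from a table of gene names, and the A-Fos table for 29, of which 20 were filled. Alternatives covered the pseudocount, the filter, the scaling, the groups in the fit, the distance, the replicate block and the omission of each library. Sequences and motifs were not analysed here.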

Additional observations from a re-analysis of the deposited data

Results flagged for a closer look

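The 2 overexpression groups, set against the same myl7:nucDsRed+ libraries, differed from each other at 2 gene-body peaks by the test of the difference itself. The hsp70l peak at 967 bp was higher in junba OE than in junbb OE cells by 1.76 on the log2 scale, and the eif3hb peak by 2.22. Both calls were lost without either junbb OE library, with equal totals and with a pseudocount of 1, and the eif3hb call also without junba OE replicate 2. The hsp70l promoter peak gave 1.54 in this comparison and did not pass (limma, adjusted p = 0.0519).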

How the results depend on the processing

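With a pseudocount of 1, gata4:EGFP+ cells had 66 higher and 57 lower gene-body peaks, and 1145 and 593 over all tested peaks. The median log2 change of gene-body peaks in junba OE cells was then -0.18. Called pairs numbered 10 in gata4:EGFP+, 41 in junba OE and 27 in junbb OE cells, against 31, 64 and 55 as reported. With a mean of at least 30, which leaves fewer peaks to test, the higher and lower counts were 27 and 43 in gata4:EGFP+, 54 and 78 in junba OE and 51 and 82 in junbb OE cells, with medians of -0.23, -0.01 and -0.01. Over all 7289 peaks tested at that mean the counts were 352 and 488, 864 and 1113, and 896 and 1154. With no filter the medians were -0.09 in gata4:EGFP+ and -0.13 in junba OE cells. With only peaks at least 2000 bp from the start site, fewer again, the counts were 77 and 30 in gata4:EGFP+, 34 and 104 in junba OE and 50 and 111 in junbb OE cells, with medians of 0.04, -0.29 and -0.27.

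Scaling moved the medians, in gata4:EGFP+ and in junbb OE cells across 0. With equal totals there were 29 lower peaks in gata4:EGFP+ and 127 in junbb OE cells, and the medians were 0.07 in gata4:EGFP+, -0.03 in junba OE, 0.17 in junbb OE, -0.14 between junba OE and junbb OE and -0.27 with A-Fos. With quantile normalization there were 132 lower peaks in gata4:EGFP+ cells, and the medians were -0.19 in gata4:EGFP+, -0.03 in junba OE and -0.01 in junbb OE cells. With libraries centred on promoter peaks there were 54 lower peaks in gata4:EGFP+ and 62 higher in junbb OE cells, and the medians were 0.04 in gata4:EGFP+, -0.28 in junba OE and -0.25 in junbb OE cells. The median of all tested peaks was then 0.11 in gata4:EGFP+, -0.22 in junba OE and -0.19 in junbb OE cells, and with equal totals it was 0.15, 0.04 and 0.24, against -0.06, -0.07 and -0.02 as deposited. Fits of only the 2 groups compared gave 148 lower peaks in gata4:EGFP+ and 50 higher in junba OE cells. Over all tested peaks these counts were 1694 and 939. The comparison of junba OE with junbb OE had 2 higher peaks, but 0 with a pseudocount of 1, 0 with equal totals, 1 with a mean of at least 30 and 0 at 2000 bp or more. For moved medians and counts without a remark the cause was not tested. The 60 peaks named among the largest changes against myl7:nucDsRed+ cells kept call and direction under each scaling and under the replicate block.

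With 1 library left out, higher counts ran from 32 to 70 in gata4:EGFP+, 46 to 92 in junba OE and 34 to 61 in junbb OE cells, and lower counts from 13 to 43, 76 to 201 and 102 to 137. Medians ran from -0.17 to -0.13, -0.17 to -0.13 and -0.13 to -0.07, and called pairs from 7 to 10, 14 to 81 and 15 to 44. Between junba OE and junbb OE the counts ran from 0 to 4 higher and 0 to 11 lower, the pairs from 0 to 6 and the median from -0.03 to 0.01. With A-Fos 0 to 0 peaks and 0 to 1 pairs were called, and the median ran from -0.06 to -0.02. Of 80 values of the 20 named peaks each, 20 lost the call in gata4:EGFP+, 1 in junba OE and 0 in junbb OE cells. Of the called peaks of gene lists, 2 of 16 in gata4:EGFP+, 7 of 18 in junba OE and 9 of 23 in junbb OE cells kept the call in every omission.

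Same-numbered libraries did not deviate together in the shared table (r from -0.03 to 0.02). In the A-Fos table r was 0.28, 0.26 and 0.08, all positive, and whether the numbers pair libraries there was not tested. The main fits took libraries as unpaired in both tables. The fit with the replicate block gave 114 higher and 89 lower gene-body peaks in gata4:EGFP+, 88 and 179 in junba OE, 100 and 191 in junbb OE cells, 3 and 0 between junba OE and junbb OE, and 0 and 0 with A-Fos. Called pairs under the block were 40, 70, 66, 0 and 0 in that order.

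With 2 libraries per group in the shared table, each of them bears on every count. Exact depth cannot be read from values that were normalized and rounded, and peaks of low mean have wide intervals on the log2 scale. Of the whole numbers from 1 to 100, nuclear values took 49 in junba OE replicate 2 and 34 in A-Fos (+) replicate 3. They took 84 in junba OE replicate 1, 88 in myl7:nucDsRed+ replicate 1, 81 in A-Fos (+) replicate 2 and 70 in A-Fos (-) replicate 3. The other libraries took all 100. Such gaps can be left where smaller counts are scaled up, and their part in the results was not tested. The differences in cell number and isolation apply to the comparisons of junba OE and junbb OE with myl7:nucDsRed+ cells. The difference in sorting reporter applies to that of gata4:EGFP+ cells, and differences in marker values apply to all comparisons with myl7:nucDsRed+ cells.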

Other observations

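Many peaks that the authors assigned to no gene nevertheless lie inside the span of a gene named elsewhere in the tables, deeper than the gene-body peaks described above. Of 2238 such peaks tested in the shared table, 18.8% were higher and 5.67% lower in gata4:EGFP+ than in myl7:nucDsRed+ cells, beside 12.3% and 6.61% of all tested peaks, with a median log2 change of 0.18. In junba OE cells 7.86% were higher and 27.9% lower, beside 10.3% and 15.9% (median -0.50). In junbb OE cells 13% were higher and 27% lower, beside 12.6% and 16.3% (median -0.38). None of 520 such peaks in the A-Fos table was called in either direction (limma).

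Gene-body peaks of genes that also had a promoter peak were lower in 23.2% of 319 cases in junba OE and 25.1% in junbb OE cells, and those of genes without one in 14.1% of 717 cases in junba OE and 15.6% in junbb OE cells. Higher calls were 6.58% and 7.52% with a promoter peak in junba OE and junbb OE cells, and 9.07% and 10.7% without one. In gata4:EGFP+ cells 8.78% were higher and 8.78% lower with a promoter peak, and 12.4% and 8.23% without one. Over all tested peaks 15.9% were lower and 10.3% higher in junba OE cells, and 16.3% and 12.6% in junbb OE cells. In gata4:EGFP+ cells 12.3% of all tested peaks were higher and 6.61% lower. These differences between kinds of gene were not tested.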
